A study of Mus musculus with 18 samples.

Results

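The liver tumors richest in C1q transcripts were compared with those poorest in them. Of 18 samples, 11 tumors were ranked by the mean log2(value + 1) of C1qa, C1qb and C1qc, and the 5 highest (C1q-high tumors 10, 5, 3, 8 and 9) were set against the 5 lowest (C1q-low tumors 12, 6, 4, 11 and 1), so that the groups were chosen by the measured values of these 3 genes. Tumor 7 fell between them and entered no group. Tumor 2 was not ranked, because the single gene Siglece held 82.9% of its deposited total. In the ranked tumors Siglece held from 21.5% (tumor 8) to 53.4% (tumor 11).

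All 18 samples were bulk poly-A RNA-seq profiles of untreated Alb-R26Met males, 6 of livers without tumors and 12 of advanced tumors. These mice carry a conditional chimeric mouse-human Met transgene at the Rosa26 locus, switched on by a Cre recombinase under the Alb promoter, which is active in hepatocytes. They were F1 offspring of Alb-Cre (129S2/SvPasOrlRj) and R26stopMet (C57BL/6JRj) parents. Livers and tumors thus shared the transgene, and neither group was a wild-type control. The C1q-high tumors came from mice aged 52 to 68 weeks and the C1q-low tumors from mice aged 49 to 72 weeks, the livers from mice aged 52 to 71 weeks, and tumors 11 and 12, both C1q-low, came from 1 mouse.

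C1q is the recognition protein of the classical complement pathway. It is built from the A, B and C chains, and in most tissues macrophages make it, unlike the later complement proteins, which hepatocytes secrete. The liver has its own macrophages, the Kupffer cells of the sinusoids, and monocytes from the blood can become macrophages in tumors. Macrophages engulf dead cells and debris, present antigen on MHC class II and respond to interferon. In bulk RNA, fewer macrophages and less RNA per macrophage cannot be told apart.

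The ranking genes lie side by side on chromosome 4 (GRCm38.p6): C1qb at chr4:136880126-136886200, C1qc at chr4:136889801-136892936 and C1qa at chr4:136895916-136898844. Because the chains varied together across tumors, the 250 bases before an annotated RefSeq transcript start of C1qb (chr4:136886201-136886450, minus strand) and of C1qc (chr4:136892915-136893164, minus strand) are shown with those of 2 macrophage genes that take part in the results. Aif1 (chr17:35176053-35176302, minus strand) encodes a macrophage calcium-binding protein and Fcer1g (chr1:171234350-171234599, minus strand) a signaling chain of Fc receptors. Capitals mark GAGGAA, a core that the macrophage factor PU.1 can bind, or its other strand TTCCTC. The sequences are RefSeq's, written 5′ to 3′. For C1qc and Aif1 the start used lies inside the outer bounds of the gene, so that their windows overlap its first bases, and the marked letters of Aif1 lie in that overlap.
C1qb: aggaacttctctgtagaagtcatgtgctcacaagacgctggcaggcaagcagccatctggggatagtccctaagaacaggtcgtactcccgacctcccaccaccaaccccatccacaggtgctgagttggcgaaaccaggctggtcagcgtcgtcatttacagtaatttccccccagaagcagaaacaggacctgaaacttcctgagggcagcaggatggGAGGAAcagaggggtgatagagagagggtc
C1qc: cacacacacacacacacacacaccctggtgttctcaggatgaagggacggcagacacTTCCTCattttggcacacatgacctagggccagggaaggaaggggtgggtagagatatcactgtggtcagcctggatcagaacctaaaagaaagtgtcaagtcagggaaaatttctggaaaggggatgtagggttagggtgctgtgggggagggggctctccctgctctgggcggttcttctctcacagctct
Aif1: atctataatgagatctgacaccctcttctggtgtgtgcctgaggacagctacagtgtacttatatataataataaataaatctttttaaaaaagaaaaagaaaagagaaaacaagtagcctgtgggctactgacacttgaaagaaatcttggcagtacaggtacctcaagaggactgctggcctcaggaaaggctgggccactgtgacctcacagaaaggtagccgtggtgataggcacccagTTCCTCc
Fcer1g: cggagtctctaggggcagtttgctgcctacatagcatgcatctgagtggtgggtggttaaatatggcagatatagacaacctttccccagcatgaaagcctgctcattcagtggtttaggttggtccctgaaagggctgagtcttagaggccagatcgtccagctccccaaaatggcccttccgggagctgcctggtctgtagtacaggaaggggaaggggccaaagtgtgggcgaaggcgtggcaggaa
Of 8 genes looked for in this table, 6 had a window, and 5 of those windows held the letters, as did 23.3% of all 32851 windows of 250 bases. The longer GAGGAAGT, which contains them, was in the C1qc window and in 2.44% of all windows. These matches describe letters and not binding.

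For the ranking, the 2 entries Siglece and Gm26917 were dropped and each sample was rescaled to 1000000 per sample. On that scale C1qa was 135, 97.7, 45.1, 42.1 and 41.5 in C1q-high tumors 10, 5, 3, 8 and 9. It was 32.7 in tumor 7 and 32.6, 33.8, 28.5, 20.4 and 15 in C1q-low tumors 12, 6, 4, 11 and 1. Tumors 10 and 5 stood apart, and the other 9 ran down without a clear step. At the edge of the groups the mean log2 value was 5.42 in tumor 9 (the last of the C1q-high group), 5.27 in tumor 7 and 5.24 in tumor 12 (the first of the C1q-low group). The chains kept close to 1 ratio, with C1qb at 0.938 to 1.33 times and C1qc at 0.833 to 1.13 times C1qa. The 6 livers had mean log2 values of 4.90 to 6.18 (median 5.43): 2 tumors were above the highest liver and 3 below the lowest, so that 3 of the 5 C1q-high tumors lay within the range of tumor-free liver.

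**Figure D1:**
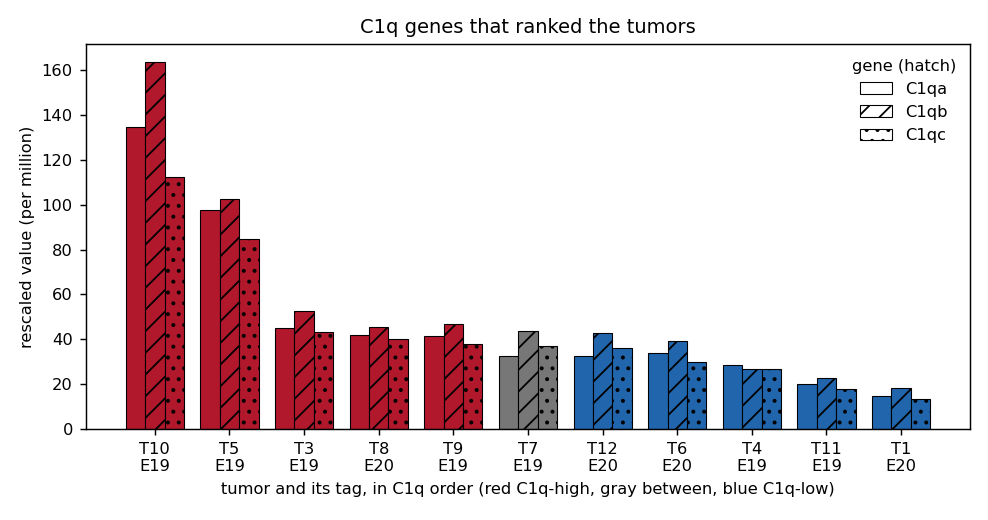
Rescaled values, of 1000000 per sample (y axis, from 0), of C1qa, C1qb and C1qc in the 11 ranked tumors (x axis, with the tag of the sample name). C1qa reached 135 and 97.7 in tumors 10 and 5 and lay between 15 and 45.1 in the other 9.

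The sample names carry a tag, E19 or E20, whose meaning is not given in the sources used here. The C1q-high group held 4 tumors tagged E19 and 1 tagged E20, and the C1q-low group 2 and 3 (two-sided Fisher's exact test, p = 0.524). Mean age was 60.2 ± 7.12 weeks in the C1q-high group and 60.4 ± 10.9 weeks in the C1q-low group (SD, n = 5 each, difference -0.20 weeks, two-sided exact permutation test over all splits, p = 1). Tumors 11 and 12 share a mouse, and with that mouse counted once the difference was -3.05 weeks (exact permutation p = 0.619). Malat1, a nuclear RNA, had scaled values of 316 to 1433 in the 7 ranked tumors tagged E19 and 3509 to 4875 in the 4 tagged E20, so the tag marked a large difference between libraries, and its part in the group differences was examined with the tag as a covariate.

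For all other genes, rescaled values were divided by 1 factor per sample and are called scaled values. The deposited values were whole numbers, and a deposited 1 corresponded to a scaled 1.42 to 2.62, so small values are coarse and 0 means any level that rounds to it. The largest of these steps, 2.62, was that of C1q-low tumor 11. Of 12124 genes tested with limma, 0 were higher (0%) and 0 lower (0%) in C1q-high tumors at an adjusted p under 0.05. At an unadjusted p under 0.05 there were 1212 genes (10%), of which 656 were higher (5.41%) and 556 lower (4.59%). The smallest adjusted p was 0.239. Groups did not overlap, all 5 tumors on one side of the other 5, for 92 genes higher (0.759%) and 69 lower (0.569%). The fold changes that follow are on the log2(scaled value + 1) scale, which understates the change of low genes, and none of them passed adjustment in this comparison of 5 against 5.

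When the C1q mean was instead a continuous term over all 11 tumors, 12178 genes were tested, and 65 rose (0.534%) and 7 fell (0.0575%) with C1q at a limma adjusted p under 0.05. Without tumor 10, 0 rose and 0 fell at that threshold (814 at an unadjusted p under 0.05, smallest adjusted p 0.0791). Slopes changed in both directions. That of Tyrobp was 0.96 with tumor 10 and 1.01 without it, Ctss 0.97 and 1.19, and Csf1r 0.60 and 0.81. Slopes of many other called genes were smaller without it: Cd68 0.75 and 0.62, Cd74 1.21 and 0.94, H2-Eb1 1.11 and 0.92, and Axl 0.64 and 0.60. Without tumor 5, 65 rose and 20 fell, and 40 of the 72 original calls were among them. Without both, 0 passed (523 at an unadjusted p under 0.05). All 71 of the original calls that could still be tested had a slope of the same sign, 50 of them at an unadjusted p under 0.05. Those calls were chosen by a fit that held the same remaining tumors, so this agreement is not independent of the choice. With the tag as a covariate 33 rose and 2 fell. For 62 of the 65 that rose, tumors 10 and 5, which also had the most C1q, were the 2 highest of the 11. The same held for 555 of the 12124 genes tested between the groups. "Rose with C1q" below refers to the fit over all 11 tumors, and each such call was lost at the adjusted threshold without tumor 10.

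Genes that macrophages at large express moved with C1q, which is a check of the ranking and not independent of it, since the same cells carry both. Tyrobp, the ITAM adaptor of myeloid receptors, had scaled values of 57.5, 45.6, 29.2, 17.1 and 24.3 in C1q-high tumors 10, 5, 3, 8 and 9 and 13.3, 13, 13.9, 13.1 and 5.70 in C1q-low tumors 12, 6, 4, 11 and 1. The groups did not overlap, and tumor 7, at 19.5, lay inside the C1q-high range. Its log2 fold change was 1.41 (SE 0.33, limma p = 0.00111, adjusted p = 0.42), and it rose with C1q by 0.96 per log2 unit (SE 0.11, adjusted p = 0.00342). Aif1 also showed no overlap, at 12.6, 9.76, 5.83, 2.84 and 5.21 against 1.66, 1.85, 1.98, 2.62 and 1.43 (log2 fold change 1.38, SE 0.31, adjusted p = 0.42). Many of the low values were a single deposited unit.

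Cathepsin S (Ctss), a lysosomal protease that trims the invariant chain of MHC class II, was 68.2, 116, 54.4, 19.9 and 39.9 in the C1q-high tumors and 21.6, 24.1, 15.9, 18.3 and 12.8 in the C1q-low tumors. Tumor 8 alone fell inside the range of the C1q-low group. The lysosomal glycoprotein gene Cd68 was 46.7, 26, 17.5, 14.2 and 13.9 against 13.3, 16.7, 7.93, 7.86 and 9.98, with tumors 8 and 9 inside the C1q-low range. Csf1r, the receptor on which macrophages depend for survival, was 18, 24.4, 17.5, 12.8 and 12.2 against 11.6, 13, 11.9, 5.24 and 5.70. Their log2 fold changes were 1.45 for Ctss (SE 0.38, adjusted p = 0.43), 0.92 for Cd68 (SE 0.33, adjusted p = 0.481) and 0.82 for Csf1r (SE 0.28, adjusted p = 0.481), and each of the 3 rose with C1q (adjusted p = 0.0156, 0.00932 and 0.0317).

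Of 20 genes of macrophages at large, 18 were tested, 13 had an unadjusted p under 0.05 with higher values in C1q-high tumors and 0 with lower, against 5.41% and 4.59% of all genes. Their median log2 fold change was 0.94, beside 0.01 for all genes tested, and 9 of the 18 rose with C1q against 0.534% of all genes. Without tumor 10 the count was 10 of 18 (background 3.34%), and without tumor 5 it was 9 of 18. In the fit without tumor 5, 801 of 11950 genes had an unadjusted p under 0.05 in either direction. Without tumors 10 and 5 the count was 5 of 17 (background 1.77%), with a median log2 fold change of 0.41. Adgre1, the F4/80 antigen of mouse macrophages, was 12.6, 16.3, 7.77, 5.69 and 6.94 in the C1q-high tumors against 4.98, 7.42, 5.95, 2.62 and 4.28 (log2 fold change 0.81, SE 0.30, adjusted p = 0.481). The lysozyme gene Lyz2 was 171, 127, 85.5, 64.0 and 172 against 76.3, 81.6, 53.5, 41.9 and 37.1, and the general leukocyte gene Ptprc (CD45) was 12.6, 9.76, 5.83, 4.26 and 3.47 against 4.98, 5.56, 1.98, 2.62 and 4.28. Both overlapped between the groups. Not every macrophage gene took part. Cd14, the lipopolysaccharide co-receptor, the mannose receptor gene Mrc1, the efferocytosis receptor gene Mertk and the oxidase subunit gene Cybb had log2 fold changes of -0.12, 0.15, 0.21 and 0.01. Summed over the 20 genes, the level was 643, 599, 350, 243 and 373 in the C1q-high tumors and 252.1, 269, 208, 170 and 175 in the C1q-low tumors. Tumor 8 thus lay within the range of the C1q-low group by this sum, and the name C1q-high is used for the group in place of macrophage-rich. Ranking the same 11 tumors by Cd68, Adgre1 and Csf1r instead gave groups that shared 4 of 5 high and 4 of 5 low tumors with those used here.

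Among Fc receptors, ITAM adaptors and their kinases, 4 of 10 tested genes had higher values at an unadjusted p under 0.05 (background 5.41%), and 4 rose with C1q (background 0.534%): Fcgr3, Fcgr4, Fcer1g and Tyrobp. Fcer1g was 64.7, 55.3, 25.3, 15.6 and 22.6 in the C1q-high tumors against 14.9, 16.7, 13.9, 15.7 and 12.8 (log2 fold change 1.06, SE 0.34, adjusted p = 0.481). Tumor 8 again sat inside the narrow C1q-low range. Among receptors and bridging proteins for dead cells, 1 of 11 passed at an unadjusted p under 0.05, near the background of 5.41%: Axl, a receptor tyrosine kinase that recognizes dying cells through Gas6. It was 28.7, 21.2, 13.6, 14.2 and 10.4 against 11.6, 11.1, 7.93, 10.5 and 5.70, and rose with C1q (slope 0.64, SE 0.09, adjusted p = 0.00932). Of 18 lysosomal genes, 3 had higher values at an unadjusted p under 0.05 against the same background, among them Hexa, a hexosaminidase subunit gene, with a log2 fold change of 0.63 (SE 0.22, adjusted p = 0.481). Of 10 myeloid transcription factors, Irf8 and Ikzf1 did (log2 fold changes 0.84 and 1.20, adjusted p = 0.496 and 0.481), and 0 of 9 without tumor 10 (background 3.34%).

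**Figure D2:**
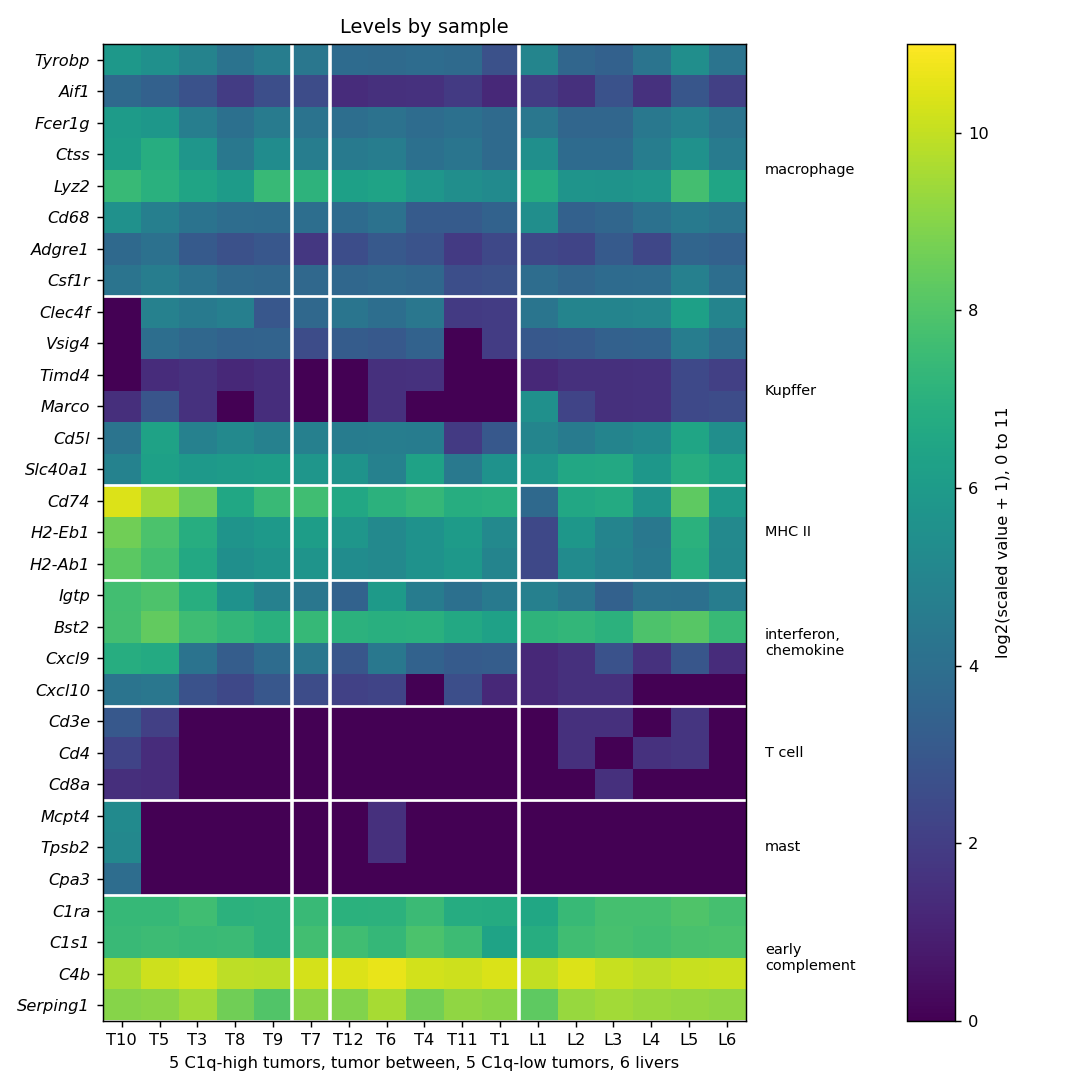
Color gives log2(scaled value + 1), from 0 to 11, of genes in rows for 11 tumors in C1q order and 6 livers in columns. Among the tumors, MHC class II genes and most macrophage genes are brightest in tumors 10 and 5, the Kupffer cell genes Clec4f, Vsig4 and Timd4 are at 0 in tumor 10, T cell genes are above 0 in those 2 tumors and in none of the other 9, and the early complement genes vary little.

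Some Kupffer cell genes were listed at 0 in tumor 10, and Clec4f in that tumor alone of the 11. Clec4f, a lectin that marks Kupffer cells in mice, was listed at 0 in tumor 10, the tumor with the most C1q, and at 27.7, 21.4, 25.6 and 6.94 in tumors 5, 3, 8 and 9. In the C1q-low tumors it was 18.2, 14.8, 19.8, 2.62 and 2.85, and in the livers 18.3 to 75.1. The groups overlapped (log2 fold change 0.12, SE 0.90, adjusted p = 0.97). Its slope on the C1q mean was -0.16 (SE 0.49) over the 11 tumors and 1.22 (SE 0.30, limma p = 0.00169, adjusted p = 0.299) without tumor 10. Vsig4, a complement receptor of tissue macrophages, was likewise listed at 0 in tumor 10 and at 14.6, 11.7, 9.95 and 10.4 in the other C1q-high tumors, against 8.29, 7.42, 9.92, 0 and 2.85, and its slope was 0.03 (SE 0.45) with tumor 10 and 1.21 (SE 0.35, limma p = 0.00448, adjusted p = 0.431) without it. Timd4, a phosphatidylserine receptor of long-lived resident macrophages, was at 0 in tumor 10 and at 1.42 to 1.94 in the other 4, which is 1 deposited unit in each. It was also at 0 in tumor 7, and 0, 1.85, 1.98, 0 and 0 in C1q-low tumors 12, 6, 4, 11 and 1. Marco, a scavenger receptor of Kupffer cells, was 1.80, 6.51, 1.94, 0 and 1.74 in the C1q-high tumors and at 0 in all C1q-low tumors but tumor 6 (1.85), too low to be tested, with livers at 1.91 to 45.1.

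Not all Kupffer cell genes were missing from tumor 10. Cd5l, a secreted scavenger-receptor protein, was 18 there, 79.7 in tumor 5 and 27.2 to 35.5 in tumors 3, 8 and 9, against 2.62 to 24.1 in the C1q-low tumors (log2 fold change 1.34, SE 0.56, adjusted p = 0.486). Its slope was 0.83 (SE 0.29) with tumor 10 and 1.55 (SE 0.25, limma p = 4.6e-05, adjusted p = 0.089) without it. The iron exporter gene Slc40a1, which hepatocytes and other cells also express, was 28.7 in tumor 10 and 58.3 to 74.8 in the other C1q-high tumors. Of 12 Kupffer cell genes 11 were tested, 3 (Cd5l, Spic and Il18bp) had higher values at an unadjusted p under 0.05 (background 5.41%), and 0 rose or fell with C1q. Their median log2 fold change was 0.52. Without tumor 10 it was 0.91, with 2 of 11 at an unadjusted p under 0.05 (background 3.34%). Without tumor 5 it was 0.35, with 0 of 10 (801 of 11950 genes in either direction). Their sum was 176, 363, 247, 287 and 231 in the C1q-high tumors, 239, 167, 296, 96.9 and 157 in the C1q-low tumors and 359 to 735 in the livers. Tumor 5 alone among the 11 tumors reached the liver range. Tumor 10, with the largest macrophage sum, had a Kupffer sum within the range of the C1q-low group, as did tumors 3, 8 and 9. A few members made up much of the sum. Nr1h3 was 64.7 in tumor 10 and 53.5 to 97.1 in livers. Id3 was 15.7 to 87.3 in the 11 tumors and 103 to 296 in livers. What part of these values came from Kupffer cells was not tested.

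**Figure D3:**
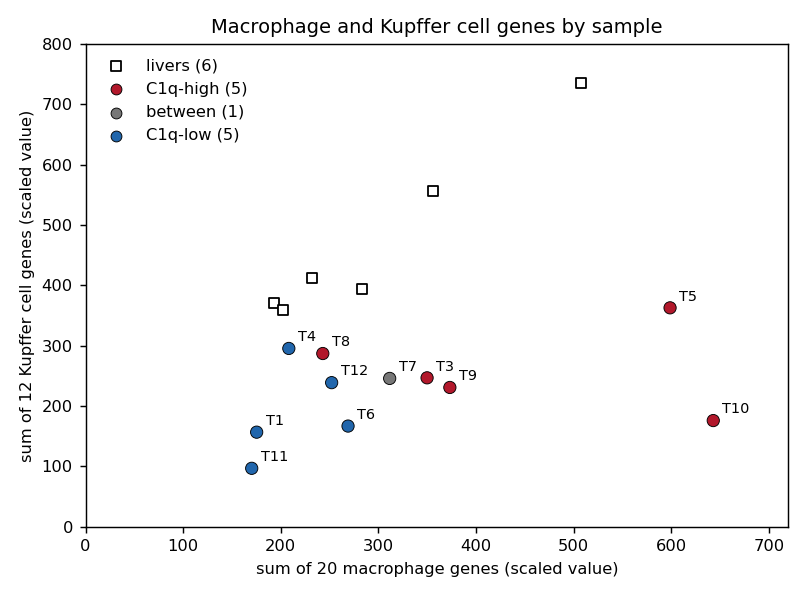
Sum of 12 Kupffer cell genes (y axis) against the sum of 20 macrophage genes (x axis), both in scaled values, for 11 tumors (circles) and 6 livers (squares). Tumors 5 and 10 have close macrophage sums, 599 and 643, but Kupffer sums of 363 and 176. Id3, a member of the Kupffer list, was 103 to 296 in the livers.

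Genes of lipid-associated and tumor macrophages were not among those with higher values: of 10 tested, 0 had an unadjusted p under 0.05 in either direction and the median log2 fold change was -0.05. The list is not specific to tumor macrophages in bulk RNA: Apoe, a member, was 14683 to 21175 in tumor-free livers. Trem2, their lipid-sensing receptor, was 3.59, 3.25, 1.94, 2.84 and 3.47 in the C1q-high tumors, 7.30 in tumor 7 and 0 to 3.32 in the C1q-low tumors (log2 fold change 0.64, SE 0.37, adjusted p = 0.558). Spp1, osteopontin, which tumor cells can also make, was 160, 415, 204, 163 and 493 against 441, 770, 393, 1875 and 103, with 9.56 to 19.7 in livers. Every ranked tumor thus had more Spp1 than every liver, and the C1q groups overlapped (log2 fold change -0.91, SE 0.64, adjusted p = 0.615). Lgals3, galectin-3, was 136 in tumor 10, 19.1 to 30.9 in the other C1q-high tumors and 9.92 to 31.4 in the C1q-low tumors. Of 6 tested monocyte genes 0 had an unadjusted p under 0.05. The macrophage growth factors Csf1 and Il34, both ligands of Csf1r, had log2 fold changes of 0.33 (SE 0.24, adjusted p = 0.619) and -0.25 (SE 0.25, adjusted p = 0.739).

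MHC class II genes, which load and present peptides to CD4 T cells, had higher group values in C1q-high tumors. The invariant chain gene Cd74 was 1361, 687, 350, 93.8 and 177 in C1q-high tumors 10, 5, 3, 8 and 9 and 96.2, 134, 159, 115 and 121 in C1q-low tumors. Tumors 10, 5 and 3 were far above the C1q-low range, and tumor 8 was below it. The chain gene H2-Eb1 was 390, 236, 115, 51.2 and 60.8 against 54.7, 35.2, 47.6, 65.5 and 35.6. The partner gene H2-Ab1 was 302, 202, 97.2, 44.1 and 50.3 against 39.8, 35.2, 47.6, 57.6 and 29.9. The log2 fold changes of Cd74 and H2-Eb1 were 1.51 (SE 0.58, adjusted p = 0.481) and 1.43 (SE 0.49, adjusted p = 0.481), and both rose with C1q (slopes 1.21 and 1.11, SE 0.22 and 0.18, adjusted p = 0.0232 and 0.0156). Of 10 genes 7 were tested and all 7 had higher values at an unadjusted p under 0.05 (background 5.41%), with a median log2 fold change of 1.35, and 6 rose with C1q.

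The MHC class II count was 5 of 7 without tumor 10 (background 3.34%) and 3 of 7 without tumor 5 (801 of 11950 genes in either direction). It was 0 of 7 without tumors 10 and 5 (background 1.77%, median 0.53). With the tag as a covariate it was 0 of 7 (955 of 12124 genes in either direction), and the median was 1.02. MHC class I genes, found in nearly all cells, differed less: 1 of 10, the peptide-loading gene Tapbp (log2 fold change 0.54, SE 0.22, adjusted p = 0.483), had an unadjusted p under 0.05, and B2m was 2811 ± 1038 against 2598 ± 605 (SD, n = 5 each, limma adjusted p = 0.963).

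Interferon-stimulated genes went the same way. Igtp, an interferon-gamma-induced GTPase gene, was 205, 241, 119, 48.3 and 27.8 in the C1q-high tumors and 9.95, 63.1, 23.8, 15.7 and 21.4 in the C1q-low tumors. Tumors 10, 5 and 3 were above the C1q-low range, and tumors 8 and 9 were inside it. Bst2, tetherin, which holds budding viruses at the cell surface, was 207, 322, 190, 155 and 127 against 133, 121, 127, 99.5 and 77.0 and rose with C1q (slope 0.56, SE 0.11, limma adjusted p = 0.0309). The log2 fold changes were 2.07 for Igtp (SE 0.61, adjusted p = 0.454) and 0.79 for Bst2 (SE 0.25, adjusted p = 0.481). Of 20 interferon genes all were tested, 10 had higher values at an unadjusted p under 0.05 (background 5.41%), 20 had a log2 fold change above 0, and 4 rose with C1q, among them Bst2, Usp18 and Gbp2. The count was 9 of 19 without tumor 10 (background 3.34%) and 9 of 19 without tumor 5 (801 of 11950 genes in either direction). It was 4 of 19 without tumors 10 and 5 (background 1.77%) and 8 of 20 with the tag as a covariate (955 of 12124 genes in either direction).

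Chemokines were uneven. Cxcl9 and Cxcl10, interferon-induced ligands that attract T cells, were highest in tumors 10 and 5: Cxcl9 was 113 and 106 there, 8.53 to 17.5 in the other C1q-high tumors and 6.63 to 20.4 in the C1q-low tumors. Cxcl9 rose with C1q (slope 1.36, SE 0.22, adjusted p = 0.0156), as did Ccl5 and Ccl6. Cxcl10 was 18, 19.5, 5.83, 4.26 and 6.94 against 3.32, 3.71, 0, 5.24 and 1.43 (log2 fold change 1.70, SE 0.53, adjusted p = 0.47). Ccl8, a monocyte attractant chosen for mention after its values were seen, was 135 in tumor 10, 16.3 in tumor 5, 1.85 in tumor 6 and listed at 0 in the other 8. Of 15 chemokine and receptor genes tested, 3 had higher values at an unadjusted p under 0.05 (background 5.41%), 1 of 14 without tumor 10 (3.34%) and 0 of 14 without tumors 10 and 5 (1.77%).

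**Figure D4:**
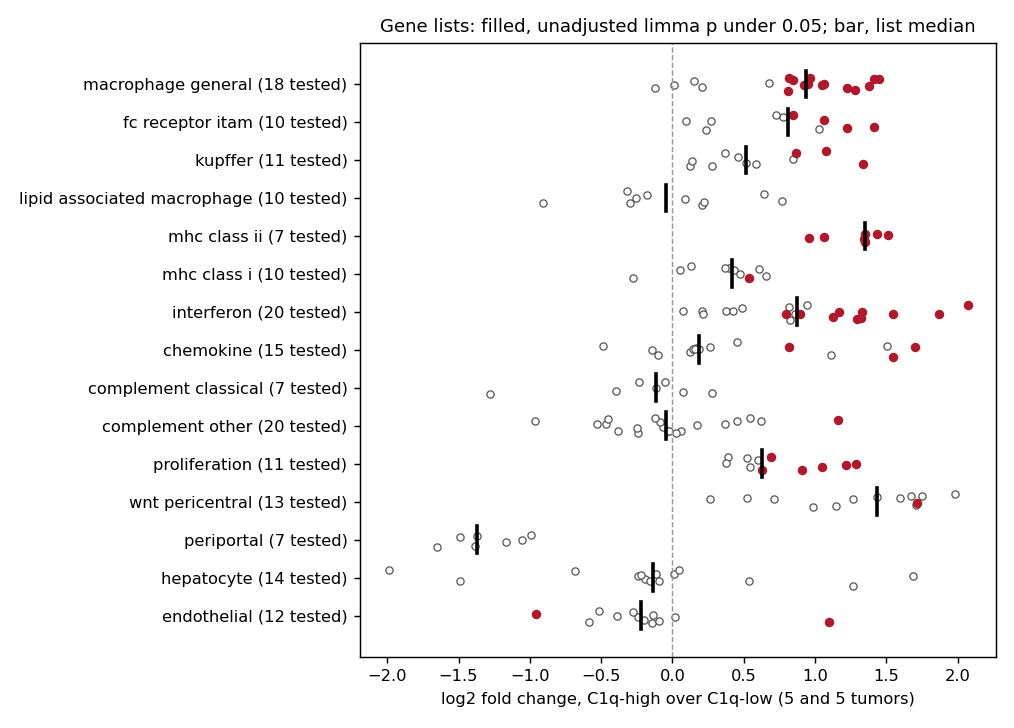
Log2 fold change of C1q-high over C1q-low tumors (x axis, 5 tumors each) for every tested gene of 15 lists (y axis); filled points have an unadjusted limma p under 0.05 and bars are list medians. All 7 MHC class II genes and 13 of 18 macrophage genes are filled, and the pericentral and periportal lists have medians of 1.44 and -1.37 with 1 and 0 filled points.

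T cell genes were seen in tumors 10 and 5. All 9 T cell genes in the table (Cd3e, Cd4, Cd8a and 6 more) were above 0 in tumor 10 and in tumor 5, and all 9 were at 0 in each of the other 9 ranked tumors. Cd3e, a chain of the T cell receptor complex, was 7.18 in tumor 10 and 3.25 in tumor 5, and the list summed to 26.9 and 16.3, with livers at 0 to 7.63. These are small values, several of them a single deposited unit, and too few tumors carried them for any test. Mast cell protease genes were high in tumor 10 alone: Mcpt4 was 37.7 and Tpsb2 34.1 there, 1.85 each in tumor 6 and 0 in the other 9, and the 9 mast cell genes summed to 102 in tumor 10 and 0 to 7.42 in the other 10 tumors. Natural killer genes summed to 10.8 and 16.3 in tumors 10 and 5 and 0 to 7.93 elsewhere, with livers at 0 to 4.41. B cell genes summed to 61.1 in tumor 10, 11.4 in tumor 5 and 5.24 to 38.9 in the other 9 tumors, and to 4.23 to 114 in livers. The part these cells have in the MHC class II, interferon and chemokine values was not tested.

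The other genes of the classical complement pathway did not follow C1q in the same way. C1ra and C1s1, the proteases that join C1q in the C1 complex and are made by hepatocytes in liver, were 165, 166, 196, 135 and 139 and 172, 185, 175, 181 and 137 in the C1q-high tumors. In the C1q-low tumors they were 128, 134, 182, 113 and 108 and 196, 159, 232, 183 and 81.2. Both overlapped between the groups, with log2 fold changes of 0.28 (SE 0.18, adjusted p = 0.592) and 0.07 (SE 0.25, adjusted p = 0.94). The substrate C4b was 1026 ± 225 against 1332 ± 167, the C1 inhibitor Serping1 485 ± 173 against 551 ± 132 and the central component C3 2455 ± 472 against 2567 ± 469 (SD, n = 5 each, limma adjusted p = 0.52, 0.775 and 0.926). Of 7 tested classical pathway genes 0 had an unadjusted p under 0.05, with a median log2 fold change of -0.12. Among 20 tested genes of the rest of complement 1 did, with higher values, near the background of 5.41% of all genes. It was Cfp, properdin, which stabilizes the alternative pathway and is made by leukocytes, at 30.5, 17.9, 9.72, 8.53 and 13.9 against 8.29, 9.27, 7.93, 2.62 and 4.28. It rose with C1q (slope 0.90, SE 0.12, adjusted p = 0.00724), and its slope was 0.95 (SE 0.24, adjusted p = 0.679) without tumors 10 and 5.

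Tumor 10 was also unlike the other tumors in its hepatocyte genes. Glul, glutamine synthetase, which normal liver keeps to hepatocytes around the central vein under Wnt/beta-catenin control, was 11035 in tumor 10, 172 to 506 in the other C1q-high tumors, 35.6 to 347 in the C1q-low tumors and 393 to 834 in livers. The Wnt feedback gene Axin2 was 62.9 in tumor 10 and 0 to 5.69 in the other 10 tumors, and Lect2 was 1214 against 21.0 to 118. Lgr5, a Wnt receptor gene, was 16.2 in tumor 10 and 0 to 1.66 in the others, and the pericentral oxidase gene Cyp2e1 was 4465 against 91.2 to 1626. Periportal genes stood at the other end: the urea cycle genes Arg1 and Ass1 were 16.2 and 32.3 in tumor 10 and 456 to 1384 and 663 to 2241 in the others, Cps1 was 5.39 against 649 to 1906, and the serine dehydratase gene Sds was listed at 0 against 51.3 to 286. Albumin (Alb) was 41171 in tumor 10, the lowest of the 11, and 55066 to 90408 in the others.

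The size of the group differences in these zonation genes depended on that tumor. All 13 tested pericentral or Wnt target genes had a log2 fold change above 0 (median 1.44) and all 7 periportal genes one below 0 (median -1.37), yet 1 of 13 (Lect2) and 0 of 7 had an unadjusted p under 0.05, near the backgrounds of 5.41% and 4.59%. Without tumor 10 the medians were 0.57 and -0.16, and 0 of 12 and 0 of 7 passed (771 of 11953 genes in either direction). Without tumors 10 and 5 the pericentral median was still above 0, at 0.62, and the periportal median was 0.09. Endothelial genes also separated tumor 10, whose sum over 12 genes was 102 against 181 to 232 in the other 10 tumors. Tek, the angiopoietin receptor of vessels, was 0, 1.63, 1.94, 1.42 and 1.74 in the C1q-high tumors and 3.32, 3.71, 3.97, 2.62 and 2.85 in the C1q-low tumors. Tumor 11 held 1 deposited unit, as did tumors 5, 3, 8 and 9, so that the groups were tied in the deposited values and set apart only by scaling (log2 fold change -0.96, SE 0.31, adjusted p = 0.481). Of 12 endothelial genes 1 was higher and 1 lower at an unadjusted p under 0.05, near the background. Without tumor 10 it was 0 higher and 1 lower (771 of 11953 genes in either direction).

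**Figure D5:**
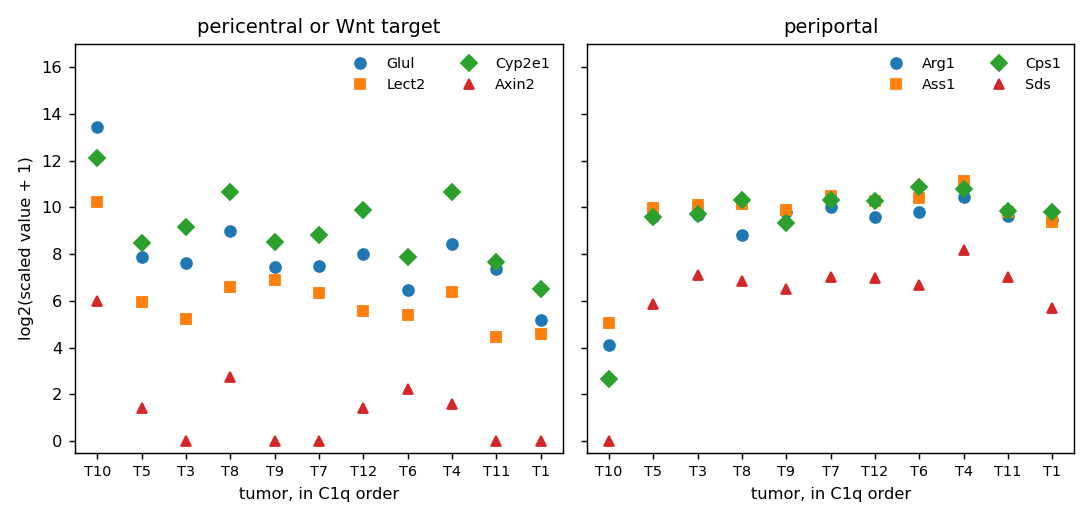
log2(scaled value + 1) (y axis) of 4 pericentral or Wnt target genes and 4 periportal genes in 11 tumors in C1q order (x axis). Tumor 10, with Glul at 11035 and Sds at 0, lies apart from the other 10 on both sides.

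Cell cycle genes had higher values in the C1q-high group. Cdk1, the kinase that drives mitosis, was 16.2, 16.3, 5.83, 5.69 and 12.2 against 1.66, 3.71, 3.97, 5.24 and 4.28, with livers at 0 to 2.21 (log2 fold change 1.29, SE 0.33, adjusted p = 0.43). Its scaled values did not overlap between the groups. Tumor 3 of the C1q-high group and tumor 1 of the C1q-low group held equal deposited values, so only scaling set the groups apart. Birc5, survivin, was 10.8, 11.4, 3.89, 5.69 and 6.94 against 1.66, 5.56, 1.98, 2.62 and 4.28 (log2 fold change 1.05, SE 0.32, adjusted p = 0.467). Of 11 tested cell cycle genes 6 had an unadjusted p under 0.05 with higher values (background 5.41%) and 11 a log2 fold change above 0 (median 0.63). However, 0 rose with C1q. The count was 3 of 11 without tumor 10 (background 3.34%) and 3 of 11 without tumor 5 (801 of 11950 genes in either direction). It was 1 of 11 without tumors 10 and 5 (background 1.77%).

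Of genes tied to the tumor cells, the fetal liver protein gene Afp was 295, 122, 77.7, 62.5 and 118 in the C1q-high tumors and 41.5, 83.5, 29.7, 81.2 and 57.0 in the C1q-low tumors (log2 fold change 1.07, SE 0.41, adjusted p = 0.481). Met, the receptor that the transgene encodes, was 235, 194, 251, 145 and 200 against 245, 310, 264, 280 and 295, and 33.1 to 77.4 in livers (log2 fold change -0.46, SE 0.18, adjusted p = 0.481). Reads of the mouse gene and of the chimeric transgene were not separated here. All 11 ranked tumors were above all livers for Met, and tumor 3 alone of the C1q-high group lay inside the C1q-low range. H19, an imprinted fetal RNA, was 115 to 429 in the C1q-high tumors and 2.85 to 114 in 4 C1q-low tumors, but 3804 in tumor 6. Hmox1, heme oxygenase, which degrades heme in macrophages and stressed hepatocytes, was 75.4, 26, 9.72, 11.4 and 15.6 against 9.95, 13, 11.9, 5.24 and 5.70 and rose with C1q (slope 1.05, SE 0.14, adjusted p = 0.00724).

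The 10 tested genes whose log2(scaled value + 1) was most like the C1q mean over the 11 tumors were, in order, Cyba, Coro1a, Rac2, Hcls1, Tyrobp, Tmem179b, Pld4, Selplg, Axl and Pla2g7, with Pearson's r from 0.962 down to 0.942. Most are known from leukocytes: Cyba and Rac2 are parts of the NADPH oxidase and Coro1a binds actin. Over the 9 tumors left without tumors 10 and 5, their r was 0.795 to 0.948, highest for Tmem179b. Cyba was 37.7, 34.2, 13.6, 17.1 and 15.6 in the C1q-high tumors and 11.6, 13, 9.92, 10.5 and 5.70 in the C1q-low tumors, with tumor 3 just above tumor 6. These correlations describe genes chosen for being the highest among 12124, over samples that share library type and, in part, tag.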

How the data were processed

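Bulk poly-A RNA-seq of 6 livers and 12 advanced tumors of Alb-R26Met mice was analysed. Per the study's methods, reads were assigned to GRCm38 with Salmon and expressed as TPM. The deposited score per gene is described by the authors as raw counts, but the columns are whole numbers summing to less than 1000000, 835144 to 907513 per sample, and were treated as TPM rounded by the authors. Read depth is therefore unknown, no interval from counting is given, and tests were made with limma 3.58.1 (R 4.3.3).

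Siglece and Gm26917 were dropped, each column rescaled to 1000000 and the tumors ranked. Values were then divided by a trimmed-mean factor (30% of ratios and 5% of levels trimmed, against the geometric mean of 17 samples). Genes at 1 or more in at least 6 of the 10 tumors were tested on log2(value + 1) with a variance trend and Benjamini-Hochberg adjustment over all of them. C1qa, C1qb and C1qc were left out of tests. The fit was tested on simulated data. Labels give separate tumors, 2 of them (11 and 12) from 1 mouse. Named genes were, from each of 34 lists, the 2 tested genes with the smallest p and the 2 with the highest level, 18 fixed genes such as Csf1r, Clec4f and Glul, and the 10 most like C1q; genes past the adjusted threshold were to be added, and there were 0. Named outside it, after their values were seen, were single members of a list (Fcgr3, Fcgr4, Il18bp, Usp18, Gbp2, Cxcl9, Ccl5, Ccl6, Ccl8, Axin2, Lgr5, Cd14, Mrc1, Mertk, Cybb and the T and mast cell genes), Malat1, histone genes, Acp3, Btg2 and Egr1. Members and lists were chosen with earlier results of these data known. Cytokine, checkpoint, B cell, neutrophil, dendritic, stellate, bile duct, hepatocyte, acute phase, iron, oncofetal and Met-axis lists are summarised in the closing section. A gene that the rule names is not reported here.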

Additional observations from a re-analysis of the deposited data

Results flagged for a closer look

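Of 189 sets of 5 tumors (96 genes, C1q-high or C1q-low), 30 held a tumor whose gap to its nearest neighbor, divided by the range of the group, was above 0.71. The cutoff would set apart about 1 in 20 groups by chance for genes chosen without regard to their values. Some of the genes here were named after their values were seen, and low values are whole deposited units. The genes are also not independent of each other, so the number of flags is a description. Tumor 10 was the highest of the C1q-high group for 11 genes: the ratio was 0.899 for Lgals3, 0.879 for Ccl8, 1 for Mcpt4, 1 for Tpsb2, 0.969 for Glul, 0.931 for Lect2, 0.910 for Axin2, 0.912 for Lgr5, 0.898 for Usp18, 0.752 for Hmox1 and 0.744 for Afp. It was the lowest for Timd4 (0.731), Tek (0.731) and Ass1 (0.840). The lowest or highest of that group was another tumor for Cd5l (tumor 5 highest, 0.715), C1s1 (tumor 9 lowest, 0.730), Il34 (tumor 8 highest, 0.740) and Malat1 (tumor 8, the group's only tumor tagged E20, highest, 0.843).

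In the C1q-low group, tumor 6 was the highest for Marco (1), Cxcl9 (0.762), Ccl8 (1), Igtp (0.739), Mcpt4 (1), Tpsb2 (1) and H19 (0.971). For Marco, Ccl8, Mcpt4 and Tpsb2 the other 4 C1q-low tumors were at 0 and tumor 6 held 1 deposited unit. Tumor 12 was the highest for Lgr5 (1, also 1 deposited unit against 0), tumor 11 for Plvap (0.728) and tumor 4 for Arg1 (0.739) and Acp3 (0.755), and tumor 1 was the lowest for Tyrobp (0.890).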

How the results depend on the processing

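At an adjusted p under 0.05, 0 genes were higher and 0 lower under every other way of testing the 2 groups that was run (scaling, pseudocount, filter, variance trend, sample weights, covariates, tag subsets, other rankings, each tumor left out; the E20 subset sets 1 tumor against 3, the lone tumor assumed to vary like the others), with 438 genes (tumors 10 and 5 out) to 2430 (sample weights) at an unadjusted p under 0.05. Only the continuous C1q term gave calls, 65 higher and 7 lower, then 33 and 2 with the tag as a covariate and 65 and 20 without tumor 5. The fits of that term with the tag or without tumors, and the groups without tumors 10 and 5, were chosen after seeing the data. The age difference was -5 weeks for the 4 highest against the 4 lowest, -4.20 weeks with all 12 tumors ranked and 0.60 weeks when tumors were ranked by Cd68, Adgre1 and Csf1r, and ran from -3.05 to 2.70 weeks with 1 tumor left out. Ranking all 12 tumors shifted the median of all genes to 0.13 (log2). No paired analysis was possible because each tumor number belongs to 1 tumor and the comparison is between tumors. Whole-number values, unknown depth and 5 tumors a group limit what low genes can show.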

Other observations

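Replication-dependent and other histone genes, looked at after their values were seen, had higher values in C1q-high tumors: of 51 tested, 32 had an unadjusted limma p under 0.05 (5.41% of all genes) and 0 were lower at that level (4.59% of all genes), 48 had a log2 fold change above 0 (median 0.85), and 5 rose with C1q in the continuous fit (0.534% of all genes). They were picked because 9 of the 40 genes with the smallest p were histone genes, so these counts are a description. H3c3 was 52.1, 48.8, 27.2, 17.1 and 34.7 in tumors 10, 5, 3, 8 and 9 and 14.9, 11.1, 9.92, 13.1 and 9.98 in tumors 12, 6, 4, 11 and 1 (log2 fold change 1.44). The libraries were poly-A selected, and most replication-dependent histone transcripts lack a poly-A tail.

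The genes with the smallest p in the comparison, also seen first and named after, were lower in C1q-high tumors and shared a limma adjusted p of 0.239. Acp3, a phosphatase gene, was 0, 0, 0, 1.42 and 1.74 against 4.98, 5.56, 7.93, 5.24 and 5.70. Btg2, an antiproliferative early response gene, was 44.9, 92.7, 77.7, 65.4 and 66.0 against 149, 243, 151, 194 and 144. Egr1, an immediate early transcription factor gene, was 68.2, 27.7, 79.7, 62.5 and 45.1 against 279, 213, 232, 217 and 110.

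For the other lists, counts at an unadjusted p under 0.05 stand beside 5.41% of all genes higher and 4.59% lower. It was 1 of 4 tested cytokine genes (Il10ra), 1 of 13 immune checkpoint genes (Cd276, higher), 1 of 8 iron genes (Hmox1), 1 of 7 genes of the Csf axis (Csf1r), 2 of 8 oncofetal genes (Afp higher, Peg3 lower) and 1 of 6 genes of the Met axis (Met, lower). It was 0 of 2 B cell genes, 0 of 2 neutrophil genes, 0 of 3 dendritic cell genes, 0 of 2 mast cell genes, 0 of 14 stellate cell and fibroblast genes, 0 of 2 bile duct genes, 0 of 14 hepatocyte genes and 0 of 13 acute phase genes.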
